A study of Mus musculus with 4 samples.

Results

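Cadherins and non-clustered protocadherins were followed in single nuclei of mouse hippocampus. The set holds every gene whose whole symbol is Cdh or Pcdh followed by a number, or by a number and x, and leaves out the clustered Pcdha, Pcdhb and Pcdhg genes. This takes 35 of the 32285 genes in the files. The rule reads symbols and no measured value, but it was chosen with earlier results of these data known. The 35 genes are 5 type I classical cadherins (Cdh1, Cdh2, Cdh3, Cdh4 and Cdh15), 13 type II classical cadherins (Cdh5 to Cdh12, Cdh18, Cdh19, Cdh20, Cdh22 and Cdh24), 5 other cadherins (Cdh13, Cdh16, Cdh17, Cdh23 and Cdh26), 9 delta protocadherins (Pcdh1, Pcdh7 to Pcdh10, Pcdh11x, Pcdh17, Pcdh18 and Pcdh19) and 3 other protocadherins (Pcdh12, Pcdh15 and Pcdh20).

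Cadherins are membrane proteins that join cells through calcium-dependent binding of their extracellular repeats. Classical cadherins bind catenins inside the cell, which link them to actin, and type II members bind partners of their own kind and some related type II members. Different neurons carry different combinations of them, and in the hippocampus several are known at synapses between defined cell types. Delta protocadherins share the extracellular repeats, bind more weakly and signal through other cytoplasmic partners.

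The study compared mice trained in active place avoidance, a spatial memory task, with untrained controls, with 2 libraries in each group. Tissue was taken 3 days after a memory retention test and with no further recall, and it was profiled with 10x Chromium 3' v3.1 chemistry, which counts unique molecular identifiers (UMIs) per gene and nucleus barcode. All mice carried the genotype ArcCreERT2::eYFPflx, an inducible Cre driven from the activity-regulated gene Arc with a floxed eYFP reporter, so that trained and untrained mice share both alleles. The tagged nuclei and the spatial data from the same mice were not analysed here. The design text gives 2 mice per group and the labels do not tie a library to a mouse. The p-values for training therefore measure the spread between these libraries. Those for differences between classes measure the scatter left within these libraries after library differences are removed.

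Values are given in the order Trained replicate 1, Trained replicate 2, Untrained replicate 1 and Untrained replicate 2. The libraries held 6019, 12206, 16916 and 11969 barcodes with at least 600 UMIs, the minimum used throughout, with a median of 736, 887, 957.5 and 1079 UMIs. Both trained libraries lay below both untrained libraries in this median, and training and depth cannot be told apart over these 4 libraries. A barcode entered a cell class when it carried clearly more markers of that class than of any other. None of the 13 marker panels holds a cadherin or protocadherin, and the names of classes below stand for "granule-like", "CA1-like" and so on. The gate placed 23.5%, 33.7%, 34.1% and 38.6% of the barcodes. Of these classes, 10 had at least 30 barcodes in every library and were tested, among them thalamic and cortical excitatory neurons and choroid plexus, which are present although the tissue is labelled hippocampus. Since the gate selected on these panels, each was bound to be high in its own class, and the ratio to the next class (2.05 to 34.0) only shows how far the classes were separated. The smallest ratio was that of the dentate granule panel, at 6978 CPM (UMIs per 1000000 UMIs of that class in that library) in granule neurons and 3397 CPM in ependymal barcodes. Trained replicate 1 stood apart, with the fewest barcodes and the highest share of thalamic neurons (21.5% of its classed barcodes, against 10.7%, 11.2% and 9.63%). Pairs of libraries shared 17 to 65 barcode sequences.

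The 35 genes took a similar share of all UMIs in every library, at 0.797%, 0.765%, 0.770% and 0.792%. Among the 10 tested classes the share ran from 0.558% ± 0.031 (SD, n = 4 libraries) in CA1 pyramidal neurons to 1.07% ± 0.035 in thalamic neurons. Oligodendrocytes (1.04%) and cortical excitatory neurons (1.03%) were close to the top and dentate granule neurons were at 0.681%. Ependymal barcodes, which were not tested, were lower than CA1 neurons, at 0.481%. Pcdh9 alone gave 50.3% of the UMIs of the set. Per 100 kb of gene span, however, Pcdh9 (451 CPM) stood beside the short genes Pcdh20 (430 CPM) and Pcdh8 (356 CPM). At the other end, 9 of the 35 genes had fewer than 100 UMIs in all 4 libraries together. The 57 clustered protocadherin genes that were left out summed to 111 to 135 CPM.

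Within the hippocampal circuit, the type II cadherins Cdh6, Cdh9 and Cdh10 differed most of the tested members between CA1 and granule neurons. Between CA3 and granule neurons Pcdh17, Cdh10, Cdh11 and Pcdh7 differed more than Cdh6 and Cdh9 did. Cdh9 is known as an adhesion molecule of the synapses that granule neurons make on CA3 neurons, and Cdh6 and Cdh10 are its known binding partners at synapses on CA1 neurons. All 3 lie on chromosome 15, with Cdh12 and Cdh18. In dentate granule neurons Cdh9 was at 420.9, 506.3, 475.1 and 476.0 CPM. In CA3 pyramidal neurons it was at 276.3, 299.4, 376.8 and 331.8 CPM, and in CA1 pyramidal neurons at 40.6, 53.3, 42.9 and 36.0 CPM. Every library of granule neurons lay above every library of CA3 neurons, and every one of CA3 far above those of CA1. Cdh10, by contrast, was at 140.3, 76.6, 73.9 and 67.6 CPM in granule neurons. It was at 277.1, 335.8, 460.2 and 396.5 CPM in CA1 neurons and at 266.1, 176.5, 245.8 and 142.8 CPM in CA3 neurons, so that the order of granule and CA1 neurons was opposite to that of Cdh9 and no library of the one overlapped the other.

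The promoters of these genes are shown because the 3 genes share a chromosome and divide the same neuron types. Of the 35 genes, 22 had an entry in the RefSeq promoter table of GRCm38.p6, and the 250 bases before the start of each were compared in all 231 pairs on the gene's own strand. The longest shared run was 15 bases, between Cdh6 and Cdh9, where the median pair shared 8 and the next longest run was 13. It is in capitals below, starting at base 233 of the Cdh6 stretch and at base 42 of the Cdh9 stretch counted from the 5′ end. The Cdh10 stretch does not hold it, and among all 32851 promoters of the table, searched on both strands over the same length, 2 hold it. Cdh6 is at chr15:13173676-13173925 (minus strand), Cdh9 at chr15:16728665-16728914 (plus strand) and Cdh10 at chr15:18820079-18820328 (plus strand), each read 5′ to 3′. A shared run is a description of the letters and not a binding site.
Cdh6: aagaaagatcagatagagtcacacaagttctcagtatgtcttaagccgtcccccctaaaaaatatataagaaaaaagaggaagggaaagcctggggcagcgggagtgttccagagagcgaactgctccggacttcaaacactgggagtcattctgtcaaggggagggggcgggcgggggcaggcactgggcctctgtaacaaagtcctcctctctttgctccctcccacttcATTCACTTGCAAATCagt
Cdh9: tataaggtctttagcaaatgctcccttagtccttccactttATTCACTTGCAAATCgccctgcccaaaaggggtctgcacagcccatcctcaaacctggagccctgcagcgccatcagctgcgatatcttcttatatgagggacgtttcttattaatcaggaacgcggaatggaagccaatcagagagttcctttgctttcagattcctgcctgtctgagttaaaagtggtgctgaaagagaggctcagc
Cdh10: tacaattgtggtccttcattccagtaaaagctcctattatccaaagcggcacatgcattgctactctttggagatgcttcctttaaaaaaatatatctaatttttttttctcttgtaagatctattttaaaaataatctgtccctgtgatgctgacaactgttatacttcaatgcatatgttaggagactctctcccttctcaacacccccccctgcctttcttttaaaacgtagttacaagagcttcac

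Differences between classes were tested with edgeR's quasi-likelihood test on UMI sums per class and library, with the library as a block and p adjusted over all 9987 genes that passed the filter on low counts, 24 of the 35 among them. Genes that passed mainly through 1 class in which they are high had to differ, so the counts below describe and support nothing more. Between CA1 and granule neurons 8 of the 24 were higher in CA1 and 7 lower, where 10.1% and 9.52% of all tested genes were called, and without Untrained replicate 1 the lower count was 4. Cdh9 was lower in CA1 neurons by a log2 change of -3.41 ± 0.15 (SE, adjusted p = 5.3e-51) and Cdh10 higher by 2.41 ± 0.14 (adjusted p = 6.8e-37). Between CA3 and CA1 neurons 5 were higher in CA3 and 5 lower (background 8.1% and 6.52%), led by Cdh9 at 2.99 ± 0.16 (adjusted p = 7.6e-41), while Cdh10 was lower in CA3 by -0.96 ± 0.13. Between CA3 and granule neurons 5 were higher in CA3 and 8 lower (background 11.2% and 9.73%), and here the change of Cdh9 was -0.42 ± 0.11 and that of Cdh10 was 1.45 ± 0.16.

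Cdh6 had few UMIs in these neurons. It was at 20.3, 50.1, 61.2 and 43.3 CPM in CA1 neurons, at 17.5, 5.5, 13.4 and 24.4 CPM in granule neurons and at 30.7, 3.5, 14.6 and 4.1 CPM in CA3 neurons. The CA1 value of Trained replicate 1 lay within the range of both other classes, and the remaining 3 libraries lay above it. The tests called it higher in CA1 than in granule neurons (1.72 ± 0.26 on the log2 scale) and lower in CA3 than in CA1 neurons (-2.46 ± 0.34), and its CA3 against granule difference of -0.74 ± 0.44 did not pass (adjusted p = 0.258).

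**Figure D1:**
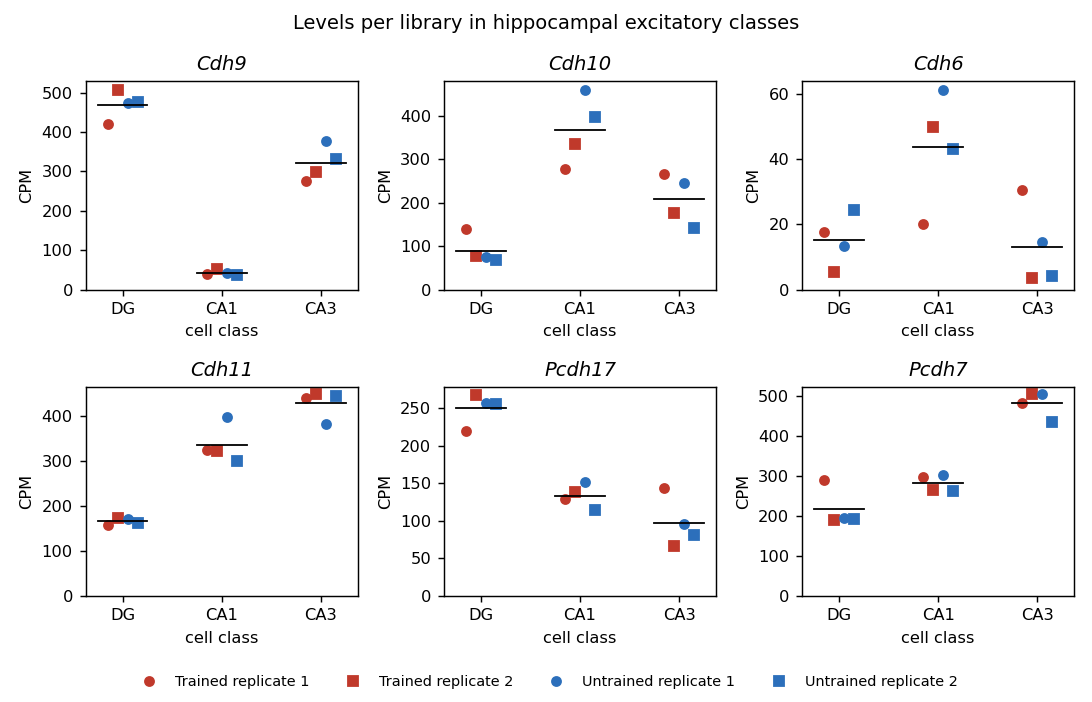
CPM of Cdh9, Cdh10, Cdh6, Cdh11, Pcdh17 and Pcdh7 (vertical axes) in dentate granule, CA1 and CA3 pyramidal neurons, 1 point per library (red trained, blue untrained, circle replicate 1, square replicate 2, line the mean of the 4). Cdh9 is near 43 CPM in CA1 neurons and above 276 CPM in every library of the other classes, while Cdh10 is lowest in granule neurons.

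The share of barcodes with at least 1 UMI followed the same order. Cdh9 was seen in 36.9% of granule, 31.5% of CA3 and 4.39% of CA1 barcodes (mean of 4 libraries), and after thinning every barcode to 600 UMIs in 23.9%, 16.4% and 2.57%. The median barcode held 757.5 to 1060 UMIs in granule neurons, 802 to 1767.5 in CA3 neurons and 760 to 1325 in CA1 neurons. Thalamic neurons, the class with the next lowest Cdh9 level (47.8 CPM), had a share of 5.31%, thinned 2.94%. For Cdh10 the shares were 32.2% of CA1 and 8.09% of granule barcodes, thinned 19.6% and 4.89%. Barcodes under 300 UMIs held Cdh9 at 107.6, 74.2, 48.8 and 57.5 CPM, each above the CA1 value of the same library. The part of free RNA in the low Cdh9 values of CA1 and thalamic neurons, and in the folds against them, was not tested.

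Other members also divided the 3 neuron types. Cdh11, a type II cadherin known from mesenchyme and brain, was between 157.8 and 173.8 CPM in the libraries of granule neurons, between 299.7 and 398.2 CPM in CA1 and between 381.7 and 449.9 CPM in CA3 neurons. Granule neurons did not overlap with the other classes, and the change was 1.07 ± 0.12 for CA1 and 1.45 ± 0.12 for CA3 against granule neurons on the log2 scale. Pcdh7, a delta protocadherin that binds protein phosphatase 1, averaged 216 CPM in granule and 481 CPM in CA3 neurons (1.38 ± 0.13). Pcdh17, a delta protocadherin known at presynaptic sites, had the opposite order. It was at 219.2, 268.2, 257.2 and 256.3 CPM in granule neurons and averaged 133 CPM in CA1 and 96.5 CPM in CA3 neurons, with changes of -0.88 ± 0.12 and -1.48 ± 0.14. Cdh13, which is tied to the membrane by a lipid anchor and has no cytoplasmic tail, was lower in CA1 (76.3 CPM) than in granule neurons (229.5 CPM) by -1.51 ± 0.14. Cdh7 was lower in CA3 (11.4 CPM) than in granule neurons (43.1 CPM) by -1.25 ± 0.29 (adjusted p = 0.00034). Cdh2, or N-cadherin, was higher in CA3 (386 CPM) than in CA1 neurons (209 CPM) by 0.89 ± 0.12, Pcdh7 by 0.84 ± 0.12, and Pcdh15 was lower by -1.01 ± 0.18.

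Each class was then set against the mean of the other 9, taken on the log2 scale. These changes are therefore not folds over the mean CPM of the other classes. Cdh20 in inhibitory neurons was at 133.9 to 160.9 CPM against a mean CPM of 106.3 to 130.7, with a log2 change of 1.02. Where libraries are said to lie above the mean of their other classes, that mean is of CPM. Dentate granule neurons had 6 members higher and 12 lower (background 13.5% and 12.0%), CA1 neurons 5 and 10 (12.4% and 10.8%), CA3 neurons 4 and 10 (14.2% and 11.9%) and inhibitory neurons 6 and 2 (12.4% and 8.0%). Thalamic neurons had 10 higher and 5 lower (20.8% and 17.5%) and cortical excitatory neurons 6 and 7 (6.4% and 4.04%). Among the other classes, oligodendrocytes had 5 higher and 4 lower (9.41% and 6.1%), oligodendrocyte precursors 7 and 0 (2.65% and 0.651%), astrocytes 8 and 6 (9.34% and 7.19%) and choroid plexus 0 and 2 (2.73% and 2.75%). Scaling by library totals in place of TMM gave 6 and 4 for inhibitory neurons, 6 and 3 for oligodendrocytes and 10 and 8 for thalamic neurons. Cdh19 was called in 9 of the 10 classes and Cdh20 in 8, whereas Pcdh1, Pcdh8 and Pcdh20 were called in none. The log2 change of Cdh9 was 2.23 ± 0.09 in granule neurons (SE, edgeR adjusted p = 9.4e-56), 1.76 ± 0.10 in CA3 and -1.56 ± 0.15 in CA1 neurons, and that of Cdh10 was -1.63 ± 0.12 in granule and 1.04 ± 0.09 in CA1 neurons. The counts of lower members rested on single libraries in several classes. Without Trained replicate 1 they were 4 in inhibitory neurons and 4 in choroid plexus, and without Trained replicate 2 they were 1 in inhibitory neurons and 1 in oligodendrocytes. Without Untrained replicate 1 they were 3 in astrocytes, 4 in cortical and 3 in thalamic neurons, and without Untrained replicate 2 they were 1 each in cortical neurons, inhibitory neurons and choroid plexus. The counts of higher members stayed within 1.5 times in each of these fits.

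**Figure D2:**
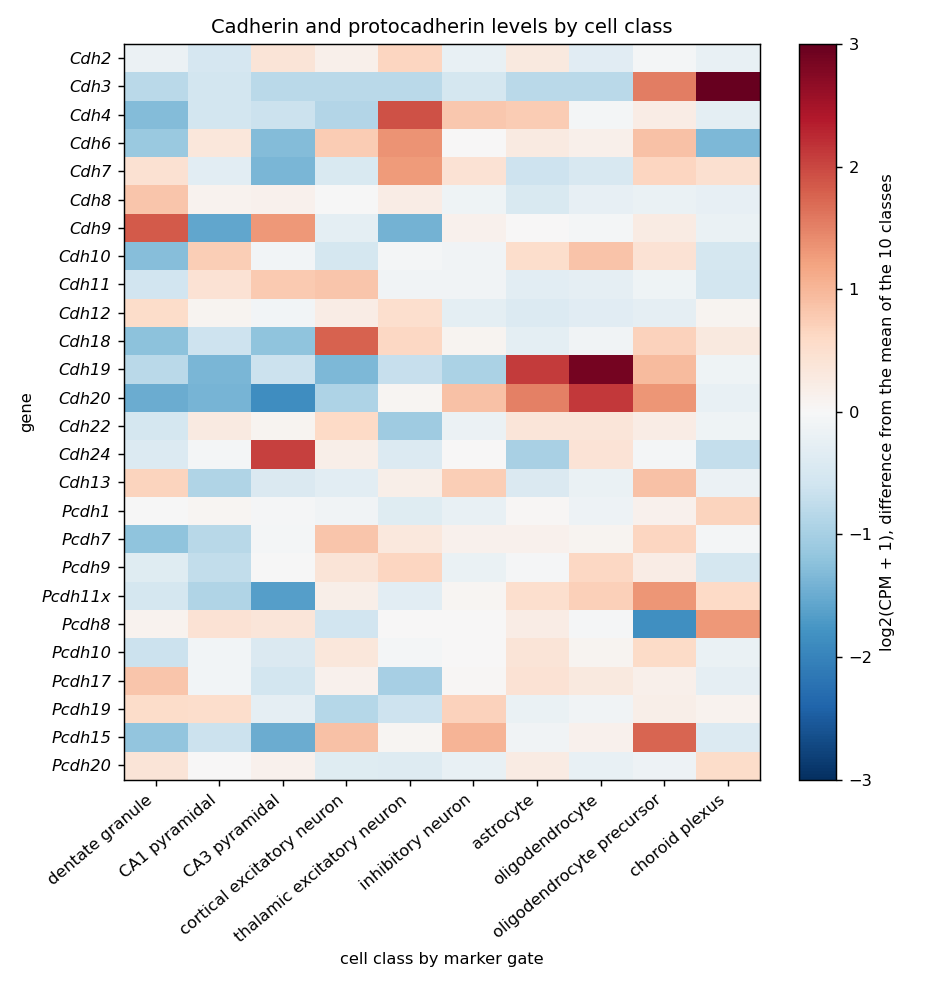
The 26 members that reach 10 CPM in the mean of at least 1 tested class (rows) in the 10 classes (columns), coloured by log2(CPM + 1) minus the gene's mean over the 10 classes and capped at 3 in either direction. Cdh9 is high in granule and CA3 neurons, Cdh18 in cortical neurons, Cdh4 and Cdh7 in thalamic neurons, and Cdh19 and Cdh20 in oligodendrocytes and astrocytes.

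Of the type I cadherins, only Cdh2 and Cdh4 reached 10 CPM over all barcodes. Cdh2, the main classical cadherin of neurons, was present in every class, from 209 CPM in CA1 neurons to 463 CPM ± 51.5 (SD) in thalamic neurons, at 400.9, 500.3, 440.8 and 510.0 CPM there (0.93 ± 0.08 above the mean of the other classes). Cdh4, or R-cadherin, was at 109.0, 139.6, 93.7 and 152.9 CPM in thalamic neurons and averaged 12.5 CPM in granule neurons. Every thalamic library lay above every library of the other 9 classes, with a log2 change of 2.30 ± 0.14 (adjusted p = 3.5e-34), and granule neurons below the others by -1.66 ± 0.26. A UMI of Cdh4 was found in 14.3% of thalamic and 1.21% of granule barcodes, thinned 6.59% and 0.84%. Cdh4 was called higher in inhibitory neurons (1.03 ± 0.16) and astrocytes (0.96 ± 0.20) too, where Trained replicate 1 was at 20.9 and 21.2 CPM, below the means of 56.3 and 54.7 CPM.

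Among type II cadherins, Cdh18 was highest in cortical excitatory neurons. It was at 540.8, 933.7, 1181.2 and 1166.2 CPM there, with the lowest value in Trained replicate 1, which has 43 such barcodes. Its level was 435 CPM in thalamic neurons and about 120 CPM in granule (119.6) and CA3 neurons (121.4). The change was 2.13 ± 0.09 (adjusted p = 1.3e-50), and all 4 libraries lay above the mean of their other classes. Cdh18 was called higher in thalamic neurons (0.94 ± 0.09) and in oligodendrocyte precursors (0.67 ± 0.15) too. Precursor libraries ran from 265.1 to 693.1 CPM and overlapped the cortical ones. Cdh7 was at 66.2, 76.1, 82.0 and 81.9 CPM in thalamic neurons, 1.66 ± 0.15 above the other classes, and Cdh6 at 50.6, 114.2, 80.9 and 110.1 CPM, 1.79 ± 0.16 above them. The Cdh6 value of Trained replicate 1 lay within the range of the other classes. For Cdh7 every thalamic library lay above the mean of the other classes, and single libraries of precursors (74.2 CPM), inhibitory neurons (68.7 CPM) and choroid plexus (67.3 CPM) overlapped with it. Cdh9, in contrast, was lower in thalamic neurons (-1.59 ± 0.16), and Cdh6 was lower in CA3 neurons (-2.05 ± 0.35, adjusted p = 2.9e-07).

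Cdh19 and Cdh20, which lie on chromosome 1 with Cdh7, were highest in oligodendrocytes and astrocytes. Cdh19 is known from Schwann cells and their precursors. It was at 133.5, 150.1, 139.6 and 222.0 CPM in oligodendrocytes, at 74.1, 76.4, 107.4 and 121.9 CPM in astrocytes, and averaged 7.66 CPM in CA1 neurons. Every library of these 2 classes lay above every neuronal library, the highest of which was 20.5 CPM in CA3 neurons. The changes were 3.14 ± 0.17 (adjusted p = 4.3e-40) and 2.32 ± 0.18 (adjusted p = 5.6e-25). In oligodendrocyte precursors Cdh19 was called higher too (1.27 ± 0.37), but libraries ran from 0.0 to 92.4 CPM. Only 2 of the 4 lay above the mean of their other classes. Cdh19 was found in 15.0% of oligodendrocyte and 0.96% of CA1 barcodes, thinned 9.61% and 0.40%. It was lower in CA1 (-1.37 ± 0.28), cortical (-1.39 ± 0.38), inhibitory (-0.96 ± 0.26) and thalamic neurons (-0.98 ± 0.28), all at few UMIs. Cdh20 was at 318.3, 311.4, 298.7 and 446.2 CPM in oligodendrocytes and at 222.4, 231.9, 223.1 and 222.2 CPM in astrocytes, with 197 CPM in oligodendrocyte precursors. Inhibitory neurons also held 145 CPM of Cdh20, whereas granule, CA1 and CA3 neurons had 27.1, 29.3 and 20.8 CPM. The changes were 2.35 ± 0.11 in oligodendrocytes, 1.62 ± 0.12 in astrocytes, 1.52 ± 0.20 in precursors and 1.02 ± 0.11 in inhibitory neurons, and between -1.75 and -1.89 in the 3 hippocampal excitatory classes. Cdh10 was high outside neurons as well, at 399 CPM in oligodendrocytes (0.91 ± 0.10) and 319 CPM in astrocytes.

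Cdh8 and Cdh12 were spread more evenly. Cdh8, a type II cadherin known in hippocampal mossy fibres, was at 745.3, 706.1, 672.8 and 730.4 CPM in granule neurons (1.02 ± 0.08 above the other classes) and lowest, at 290 CPM, in astrocytes (-0.63 ± 0.11). Cdh12 ran from 252 CPM in astrocytes (-0.61 ± 0.11) to 492 CPM in granule neurons (0.68 ± 0.08) and 476 CPM in thalamic neurons. It was lower in oligodendrocytes (-0.48 ± 0.11) and in inhibitory neurons (-0.35 ± 0.09) by small amounts. Cdh7 was lower in astrocytes by -0.80 ± 0.27 (adjusted p = 0.023). Cdh11 was highest in cortical neurons, between 427.0 and 474.7 CPM (0.97 ± 0.10), and Cdh22 lay between 6.6 CPM (thalamic) and 22.9 CPM (cortical). Cdh24 did not pass the filter; it was at 10.2, 31.1, 22.6 and 32.6 CPM in CA3 neurons, a total of 57 UMIs, and at 2.10 to 7.05 CPM in the other tested classes.

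Pcdh9, a delta protocadherin, was abundant in every class. It was at 7014.6, 6337.5, 6270.9 and 6808.1 CPM in thalamic neurons and at 2879.6, 2376.7, 2279.6 and 2556.8 CPM in CA1 neurons, with 6505 CPM in oligodendrocytes. All 4 libraries of thalamic neurons had more than 2 times the level of any CA1 library. Pcdh9 was called higher in thalamic neurons (0.89 ± 0.08), oligodendrocytes (0.65 ± 0.08) and cortical neurons (0.41 ± 0.09). It was called lower in choroid plexus (-0.79 ± 0.11, edgeR adjusted p = 8.5e-10), CA1 (-0.72 ± 0.09) and granule neurons (-0.38 ± 0.09). Pcdh7 was at 825.5, 844.4, 1079.5 and 825.3 CPM in cortical neurons (0.95 ± 0.09 above the other classes) and higher in oligodendrocyte precursors (780 CPM, 0.66 ± 0.11). Pcdh17 was highest in granule neurons (250 CPM ± 21.4, 1.05 ± 0.09) and lowest in thalamic neurons (70.1 CPM, -0.89 ± 0.13). Pcdh19, an X-linked gene known for its link to epilepsy, averaged 126 CPM in inhibitory neurons, 114.6 in granule, 111.5 in CA1 and 42.7 in cortical neurons (-0.79 ± 0.21). Pcdh11x, also on X, was 193 CPM in precursors and 23.5 CPM in CA3 neurons, where the change was -1.84 ± 0.21, and lower in CA1 neurons too (-1.10 ± 0.16). Pcdh10 ran from 56.9 CPM in granule neurons (-0.66 ± 0.13) to 134 CPM in precursors. Pcdh1 stayed between 40.1 and 82.0 CPM, and Pcdh8, known as an activity-induced protocadherin, between 2.94 CPM in precursors and 33.7 CPM in choroid plexus, with 18.2 CPM in CA1 neurons.

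Pcdh15, whose protein forms the tip links of hair cells with Cdh23, was highest in oligodendrocyte precursors. It was at 178.7, 859.0, 1059.8 and 1070.5 CPM there. Trained replicate 1, with 42 precursor barcodes, lay far below the other 3 libraries, and its value overlapped the other classes. The change was 2.06 ± 0.12 (adjusted p = 6.9e-35) with it and 2.20 ± 0.11 without it. A UMI of Pcdh15 was found in 48.2% of precursor and 8.37% of CA3 barcodes, thinned 36.2% and 4.24%. Pcdh15 was higher in inhibitory neurons too, at 371.2, 515.2, 456.3 and 562.6 CPM (1.18 ± 0.09), and lower in granule (102 CPM, -1.47 ± 0.13) and CA3 neurons (82.9 CPM, -1.68 ± 0.14). Pcdh20 stayed between 21.2 and 41.5 CPM. Cdh13 was highest in precursors (264 CPM, 0.84 ± 0.18) and inhibitory neurons (240 CPM, 0.93 ± 0.09). Granule (0.77 ± 0.10) and thalamic neurons (0.47 ± 0.11) were called higher too. Inhibitory libraries ran from 166.8 to 294.1 CPM and overlapped the granule ones (204.7 to 245.5 CPM).

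Other members had few UMIs. Cdh1 (10 UMIs over all libraries), Cdh15 (41), Cdh16 (3), Cdh17 (4) and Pcdh18 (53) stayed under 5 CPM in each of the 10, and Cdh23 reached 6.97 CPM in oligodendrocytes. Cdh1 is the E-cadherin of epithelia, Cdh15 the M-cadherin of muscle, and Cdh16 and Cdh17 are known from kidney and intestine. Of 32 UMIs of Cdh3, or P-cadherin, 10 lay in choroid plexus (36.7 CPM over the pooled libraries, exact Poisson 95% interval 17.6 to 67.4). Of 42 UMIs of Cdh5, the VE-cadherin of blood vessels, 6 lay in the few endothelial barcodes (30.6 CPM, 11.2 to 66.7), and of 40 UMIs of Cdh26, 11 lay in ependymal barcodes (67.9 CPM, 33.9 to 121). Both classes had under 30 barcodes in at least 1 library and were not tested. Pcdh12 had 5 UMIs in all, 2 of them endothelial. These intervals cover counting error only.

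Across the 10 classes, patterns of the members were compared as a description, with each point the mean level of a class and all classes drawn from the same libraries. The most alike pairs were Pcdh10 and Pcdh15 (Pearson r = 0.83 over 10 classes), Cdh8 and Cdh12 (0.82), Pcdh7 and Cdh18 (0.82) and Cdh19 and Cdh20 (0.81). Cdh6 and Cdh9, which share the promoter run, had r = -0.67, and Cdh9 and Cdh10 had r = -0.52.

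Genes that act with cadherins were read from 3 lists. Of the catenins and cytoplasmic partners (16 genes, 15 tested in the class contrasts), 6 were higher and 3 lower in thalamic neurons (20.8% and 17.5% of all tested genes), led by Ctnnd1 (1.71 ± 0.10), which encodes p120 catenin, and 1 was higher and 7 lower in granule neurons (13.5% and 12.0%). The median log2 change was 0.22 and -0.12 in these classes, beside -0.02 and 0.00 over all tested genes. CA3 neurons also had 6 higher and 3 lower (14.2% and 11.9%), with a median of 0.23 beside -0.03. CA1 neurons had 5 higher and 3 lower (12.4% and 10.8%), with a median of -0.17 beside -0.03. Ctnna3, an alpha-T catenin, was higher in cortical (1.52 ± 0.09) and inhibitory neurons (1.17 ± 0.08) and lower in CA3 (-1.81 ± 0.13) and CA1 neurons (-1.56 ± 0.12). Of the atypical and cadherin-related proteins (21 genes, 9 tested), 3 were higher and 1 lower in granule neurons (13.5% and 12.0% of all tested genes), led by Fat4 (2.25 ± 0.15), and 3 were higher and 2 lower in CA3 neurons (14.2% and 11.9%), with Clstn2 at 1.54 ± 0.08 and Dchs2 at 2.22 ± 0.28, and the medians were -0.11 and 0.04. Of the proteases and phosphatases that act on cadherins (10 genes, 9 tested), 2 were higher and 2 lower in thalamic neurons (20.8% and 17.5% of all tested genes), with a median of 0.19. Ptprm, a receptor phosphatase that binds cadherin complexes, was higher there (2.85 ± 0.08) and in inhibitory neurons (2.30 ± 0.08) and lower in CA3 (-2.10 ± 0.17) and granule neurons (-1.81 ± 0.14).

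Training was compared in each class. No member passed an adjusted p of 0.05 by edgeR in any of the 10 classes or over all barcodes, and none by DESeq2. The percentages of all tested genes called by edgeR were 0.0102% in granule, 0.0103% in CA1, 0.0122% in CA3, 0.0195% in inhibitory, 0.0115% in thalamic and 0.0161% in cortical neurons, 0.0259% in astrocytes, and 0.0% in oligodendrocytes, precursors, choroid plexus and over all barcodes. At an unadjusted p under 0.05 there were 16 of 200 tests of members (8.0%) against 3940 of 71823 over all genes (5.49%). In simulated granule neuron sums, 50 of 9808 genes were changed at each of 1.5, 2, 4 and 8-fold. The same edgeR test recovered 54% of 2-fold and 90% of 4-fold changes, with 11 false calls. So many changed genes ease the adjusted threshold, whereas 1 gene was called in the data, so recovery in the data can be lower. A 2-fold change of a member could therefore be missed. Classes with fewer UMIs, such as precursors, were not simulated. With every barcode thinned to 600 UMIs, edgeR again called 0 members. The median log2 change of the tested members was 0.05 in granule (24 members), 0.04 in CA1 (23) and -0.01 in CA3 neurons (21), beside -0.01, -0.01 and -0.02 over all tested genes.

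The smallest p was that of Cdh7 in inhibitory neurons, at 29.2 and 23.8 CPM in trained and 68.7 and 47.7 CPM in untrained libraries. The groups did not overlap, and the log2 change was -1.19 ± 0.33 (SE, edgeR adjusted p = 0.469). Pcdh8, in the same neurons, was at 4.2 and 8.3 against 25.2 and 15.5 CPM, again with no overlap (-1.45 ± 0.55, edgeR adjusted p = 0.886). Trained replicate 1 held 239739 UMIs of these neurons in all, so its 4.2 CPM rests on very few Pcdh8 UMIs. Cdh9 was at 77.9 and 52.6 CPM in trained and at 35.1 and 25.7 CPM in untrained thalamic neurons (0.9995 ± 0.31, edgeR adjusted p = 1.0). Cdh9 in barcodes under 300 UMIs was also higher in both trained (107.6 and 74.2 CPM) than in both untrained libraries (48.8 and 57.5 CPM). The lowest of these barcodes held 101 and 174 UMIs in trained and 201 and 251 UMIs in untrained libraries. The groups are therefore unlike in range, and the part of these barcodes in the thalamic difference was not tested. Cdh10 was at 277.1 and 335.8 CPM in trained and at 460.2 and 396.5 CPM in untrained CA1 neurons (-0.43 ± 0.19, edgeR adjusted p = 1.0). Cdh7, Pcdh8, Cdh9 and Cdh10 each had both trained libraries on one side of both untrained libraries there. They were picked for a small p, so this split was nearly built in, and its share over all genes was not counted.

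In granule neurons the members with the smallest p were Pcdh10 (-0.63 ± 0.29), Cdh6 (-1.35 ± 0.64), Pcdh15 (0.38 ± 0.22) and Cdh10 (0.34 ± 0.25), all log2 changes of trained minus untrained ± SE by edgeR. In CA3 neurons they were Pcdh19 (0.67 ± 0.31), Cdh18 (-0.53 ± 0.27), Cdh9 (-0.29 ± 0.22) and Cdh22 (0.70 ± 0.60). In CA1 neurons Cdh10 was followed by Cdh20 (0.67 ± 0.43), Cdh9 (0.36 ± 0.30) and Cdh12 (0.20 ± 0.18). In inhibitory neurons Cdh7 and Pcdh8 were followed by Cdh9 (0.48 ± 0.23) and Pcdh10 (-0.52 ± 0.26), and in thalamic neurons Cdh9 was followed by Pcdh20 (0.69 ± 0.48), Pcdh8 (0.56 ± 0.51) and Cdh12 (-0.22 ± 0.20). Cortical neurons had Cdh18 (-0.54 ± 0.23), Cdh13 (-0.79 ± 0.36), Cdh8 (0.59 ± 0.27) and Cdh6 (-1.03 ± 0.50). Oligodendrocytes had Pcdh10 (-0.84 ± 0.39), Cdh4 (-0.62 ± 0.56), Cdh8 (0.30 ± 0.29) and Cdh6 (-0.50 ± 0.51), and precursors had Pcdh15 (-0.81 ± 0.35), Pcdh17 (-1.02 ± 0.44), Cdh2 (0.80 ± 0.35) and Cdh18 (-0.74 ± 0.37). Astrocytes had Cdh9 (0.64 ± 0.29), Pcdh1 (-0.77 ± 0.40), Cdh11 (0.48 ± 0.26) and Cdh8 (0.44 ± 0.25), and choroid plexus Cdh11 (1.13 ± 0.48), Cdh10 (0.64 ± 0.48), Cdh2 (-0.49 ± 0.42) and Pcdh9 (0.19 ± 0.25). Their adjusted p by edgeR ran from 0.390 for Cdh9 in astrocytes upward. For Pcdh15 in CA1 neurons, clusters in place of the marker gate turned the change from -0.18 ± 0.21 to 1.51 ± 0.21 (edgeR adjusted p = 0.0063), and the cause was not tested. For Pcdh15 in precursors the change was -0.29 ± 0.31 without Trained replicate 1.

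**Figure D3:**
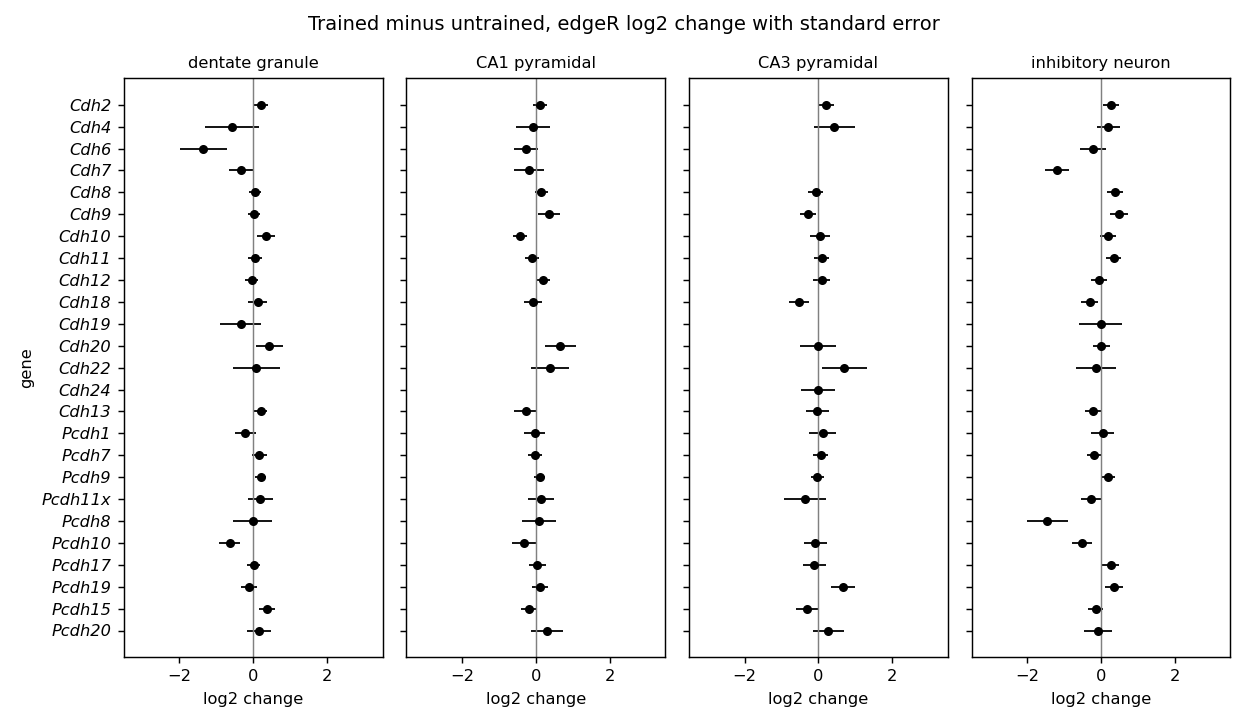
Log2 change of trained minus untrained ± SE (horizontal axis, edgeR, n = 2 against 2 libraries) for each tested member in dentate granule, CA1, CA3 and inhibitory neurons. No member passes an adjusted p of 0.05, and Cdh7 in inhibitory neurons (-1.19 ± 0.33) has the smallest p.

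Over all barcodes, Cdh6 was at 39.6 and 32.3 CPM in trained and at 66.3 and 44.0 CPM in untrained libraries (-0.60 ± 0.20, edgeR adjusted p = 0.792). Cdh18 was at 269.4 and 318.4 against 360.8 and 422.7 CPM (-0.38 ± 0.15), Cdh9 at 193.4 and 186.9 against 154.1 and 166.8 CPM (0.28 ± 0.13), and Pcdh19 had 0.26 ± 0.13. The 2 groups did not overlap for Cdh6, Cdh18 and Cdh9, which were likewise picked for a small p, and the share of such genes was not counted. Cortical neurons, the class richest in Cdh18, were 3.03% and 6.22% of classed barcodes in trained and 8.31% and 6.94% in untrained libraries; the part of this in the Cdh18 difference was not tested. In these sums fewer cells of a type and less RNA per cell cannot be told apart. The training change of Cdh10 in CA1 minus that in granule neurons was -0.72 ± 0.27 (edgeR adjusted p = 1.0), and no member differed between the 3 hippocampal classes in this way (background 0.0%, 0.0% and 0.0214%). Of the lists, 0 of 136 catenin tests, 0 of 68 tests of atypical cadherins and 0 of 80 tests of proteases and phosphatases were called, with 7, 4 and 2 at an unadjusted p under 0.05.

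The files also hold many barcodes with little RNA. Those with fewer than 300 UMIs (45018, 43086, 20972 and 11619 per library) held the set at 0.347% of UMIs, below the 0.781% of barcodes with at least 600. The difference followed gene span, in ratios of levels pooled over the 4 libraries. Barcodes under 300 UMIs held 9213534, 9555559, 5575026 and 3216928 UMIs per library, and those of at least 600 held 4799202, 12319771, 18423764 and 14763031. Trained libraries thus weigh more in the low-UMI level than in the other. Their low-UMI barcodes also reach lower (101 and 174 UMIs against 201 and 251). Among the 26 members with at least 100 UMIs, the ratio of the low-UMI level to the other level fell with span (Spearman rho = -0.88, across genes, which are not independent), and 18 of 19 members over 100 kb were lower in low-UMI barcodes. Pcdh15 and Cdh18, both far over 100 kb, had a ratio of 0.253. Of 7 members under 100 kb, 6 had a ratio of the pooled UMIs above 1. Pcdh8 (3.18), Pcdh20 (3.02), Pcdh1 (2.19) and Pcdh10 (1.52) were higher in low-UMI barcodes in all 4 libraries. Pcdh17 (1.17) and Cdh19 (1.12) were higher in 2 libraries and lower in 2. The exceptions were Pcdh19 (106 kb, 1.30) and Cdh24 (10.8 kb, 0.684). Over 13788 other genes the relation was weaker (rho = -0.55), with a median ratio of 0.543 for 2274 genes over 100 kb and 1.23 for 11514 under it. The level over all barcodes rose with span among the members (rho = 0.60), which bears on any comparison of UMI levels between members.

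**Figure D4:**
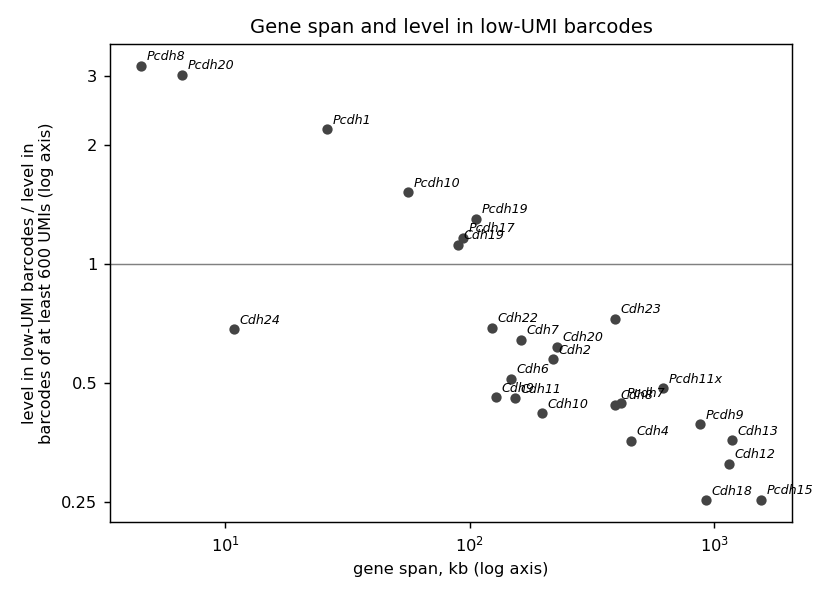
Gene span in kb (RefSeq GRCm38.p6, horizontal log axis) against the ratio of the level in barcodes under 300 UMIs to that in barcodes of at least 600 UMIs (vertical log axis), for the 26 members with at least 100 UMIs. Long genes such as Pcdh15 lie below 1 and short genes such as Pcdh8 above 1.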

How the data were processed

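The deposited files hold UMI counts per gene and barcode, which the authors made with Cell Ranger (7.0.0 per the file headers; Cell Ranger 8, STAR and GRCm39 per the submitters' processing notes, which is at odds with the headers). The deposited barcodes reach down to 101 and 174 UMIs in the trained and to 201 and 251 UMIs in the untrained libraries. Barcodes with at least 600 UMIs were placed in 13 classes by marker genes: at least 3 marker UMIs from 2 markers, at least 2 times the expected number, a score of at least 3 and a margin of 2 over the next class. These thresholds were chosen after the data were seen. No doublet caller was run. The margin drops only barcodes whose best class scores less than 2 above the next, so barcodes with markers of more than 1 class can remain. The members and lists were chosen with earlier results of these data known.

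Counts were summed per class and library, and classes with at least 30 barcodes in every library were tested with edgeR 4.0.16 (filterByExpr, TMM, quasi-likelihood F test, Benjamini-Hochberg over all genes; R 4.3.3), with DESeq2 1.42.0 as an alternative. The SE of a log2 change is its size divided by the square root of F. CPM is UMIs per 1000000 UMIs of that class and library. Named are members reaching 10 CPM in a class, the 4 smallest p for training in each class, and up to 5 called members per class contrast whose sides did not overlap in any library; of the lists, 2 to 3 genes with the smallest p. The scripts were tested on simulated data. The other steps ran in Python 3.11.15 (scipy 1.17.1, pandas 2.3.3, leidenalg 0.10.2). Gene spans and promoters are from RefSeq GRCm38.p6, joined by symbol.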

Additional observations from a re-analysis of the deposited data

How the results depend on the processing

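Alternatives were DESeq2, other scalings, no filter, a stricter gate, clusters, at least 1000 UMIs, thinning to 600 UMIs, no library block, each library left out, and, chosen after the data were seen, leaving out shared barcodes and a minimum of 20 barcodes per library. At least 1000 UMIs left no value for cortical neurons, precursors and choroid plexus, the stricter gate none for cortical neurons and precursors, and clusters gave one only where a named cluster was large enough.

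Of the counts of members called, 398 were kept within 1.5 times and 33 were not. For training, where the count is 0 otherwise, 1 member was called in CA1 neurons with clusters (Pcdh15, which turned from -0.18 to 1.51), 1 in cortical neurons (Cdh18, -1.33) and 1 in precursors (Pcdh15, -2.66) without Trained replicate 2, and 1 over all barcodes with no filter or without Untrained replicate 2 (Cdh6, adjusted p = 0.0257 and 0.0434); leaving out single libraries gave 0 to 1 in these. Without Trained replicate 2 the trained side is Trained replicate 1 alone (43 cortical and 42 precursor barcodes), which stands apart and is assumed to vary like the untrained libraries. Without a library block, 5 members were higher in astrocytes (8 in the main fit) and 2 lower in oligodendrocytes (4). With at least 1000 UMIs, 1 was lower in astrocytes (6), 5 in inhibitory neurons (2), 2 in oligodendrocytes (4) and 8 in CA3 against CA1 neurons (5), and 9 were higher in oligodendrocytes (5). With thinned barcodes, 6 were lower in CA3 (10), 3 in cortical (7), 1 in inhibitory (2) and 2 in thalamic neurons (5). Library totals gave 4 lower in inhibitory (60.0% higher against 75.0%), 8 lower in thalamic (55.6% against 66.7%) and 1 lower in choroid plexus (2), and 66.7% against 55.6% higher in oligodendrocytes. They moved the median of all genes by -0.19 in CA3 and thalamic neurons, -0.13 in CA1 neurons and in CA3 against granule neurons, 0.17 in choroid plexus, 0.12 in astrocytes and 0.10 in oligodendrocytes on the log2 scale. In choroid plexus, no filter gave 1 higher and 6 lower, and the stricter gate 5 lower. Leaving out 1 library gave 3 to 7 lower in astrocytes (3 without Untrained replicate 1), 1 to 4 in choroid plexus (1 without Untrained replicate 2, 4 without Trained replicate 1), 1 to 7 in cortical neurons (4 without Untrained replicate 1, 1 without Untrained replicate 2), 1 to 4 in inhibitory neurons (4 without Trained replicate 1, 1 without Trained replicate 2 or Untrained replicate 2), 1 to 6 in oligodendrocytes (1 without Trained replicate 2), 3 to 5 in thalamic neurons (3 without Untrained replicate 1) and 4 to 6 in CA1 against granule neurons (4 without Untrained replicate 1, 7 with all). The causes were not tested.

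Training changes that were not called reversed for Cdh9 in CA1 neurons without Trained replicate 2 (-0.030, range over libraries left out -0.030 to 0.485), Cdh18 in CA3 (0.0068) and Cdh9 in inhibitory neurons with clusters (-0.049), Cdh2 in choroid plexus without Trained replicate 2 (0.138, range -0.932 to 0.138), and, with at least 1000 UMIs, Cdh8 in astrocytes (-0.046) and oligodendrocytes (-0.16) and Cdh10 in granule neurons (-0.0069). Of named class contrasts, 449 values were kept, 18 lost the call and 0 reversed, mostly small changes such as that of Cdh7 in astrocytes (-0.80); Cdh7 in CA3 against granule neurons lost its call with thinned barcodes (adjusted p = 0.153). The labels do not say that a replicate number marks a shared litter or batch, and same-numbered libraries correlated at -0.02 to 0.13; the replicate block called 0 members in all 11 training tests.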
